A study of Homo sapiens with 12 samples.

Results

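A set of 10 genes that mark the differentiated intestinal epithelium was followed in the established human colorectal cancer line SW48, untreated and after inhibitors of DNA methylation and histone deacetylation. The genes were CDX1, CDX2, MUC2, TFF3, VIL1, CEACAM5, FABP1, CA2, CA4 and ALPI, taken as all probes that the platform annotation assigns to these symbols. All 10 genes had a probe, with 11 probes in all because CA2 had 2, out of 18665 named genes and 48801 probes on the Illumina HumanWG-6 v3 array. The 12 arrays fell into 4 groups of 3, which were untreated cells (control), 1 µM 5'-Aza-cytidine for 5 days (azacytidine), 0.5 µM Trichostatin A for 2 days (TSA), and both agents in sequence, 5 days of azacytidine and then 2 days of TSA (the combined treatment). All groups were the same single cell line. Whether the replicates came from separate cultures is not given in the labels, and the p-values then measure the spread between arrays, which may be technical. Treatment times differed between the groups and cannot be told apart from the agents.

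The intestinal epithelium renews itself from crypt stem cells whose daughters become absorptive cells, mucus-secreting goblet cells, or rarer hormone-secreting, tuft and Paneth cells. CDX1 and CDX2 are homeodomain transcription factors that specify intestinal identity and bind the promoters of many intestine-specific genes. MUC2 (the gel-forming mucin of the colon) and TFF3 (a trefoil peptide) are secreted by goblet cells. VIL1 (villin, an actin-bundling protein of the brush border) and CEACAM5 (carcinoembryonic antigen, a cell-surface glycoprotein) mark enterocytes and colonocytes. FABP1 (a fatty acid-binding protein), CA2 and CA4 (cytosolic and membrane-anchored carbonic anhydrases) and ALPI (intestinal alkaline phosphatase) belong to absorptive cells. Azacytidine is incorporated into nucleic acid and traps DNA methyltransferases, and TSA inhibits histone deacetylases. DNA methylation was not measured on these arrays.

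DNA methyltransferases, which azacytidine traps, methylate cytosine in CpG dinucleotides, and the promoter windows of the genes (250 bases before to 50 bases after the RefSeq start, GRCh38.p14) were read for their CpG content. RefSeq windows were matched for 5 of the 10 genes, CDX2, MUC2, CEACAM5, FABP1 and ALPI. Over all 35116 promoter windows the median was 14 CpGs, with quartiles of 4 and 28. The CDX2 window held 16 CpGs, MUC2 held 9, FABP1 and ALPI held 7 each, and CEACAM5 held 2. The windows with the most and the fewest CpGs are shown 5′ to 3′ on the gene's strand, with every CpG in capitals, CDX2 being chr13:27969266-27969565 on the minus strand and CEACAM5 being chr19:41708376-41708675 on the plus strand.
CDX2: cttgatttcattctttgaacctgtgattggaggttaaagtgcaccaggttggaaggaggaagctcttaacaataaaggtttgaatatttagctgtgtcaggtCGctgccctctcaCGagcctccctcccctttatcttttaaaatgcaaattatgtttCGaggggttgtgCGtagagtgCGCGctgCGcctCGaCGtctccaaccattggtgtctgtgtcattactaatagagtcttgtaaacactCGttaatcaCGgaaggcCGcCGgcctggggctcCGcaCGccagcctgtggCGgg
CEACAM5: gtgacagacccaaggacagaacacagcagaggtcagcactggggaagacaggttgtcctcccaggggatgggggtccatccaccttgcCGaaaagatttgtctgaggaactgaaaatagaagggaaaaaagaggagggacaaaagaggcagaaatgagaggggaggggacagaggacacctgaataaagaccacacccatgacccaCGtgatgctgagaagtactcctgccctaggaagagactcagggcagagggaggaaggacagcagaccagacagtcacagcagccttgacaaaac
In the CDX2 window 10 of the 16 CpGs lay before the start, and in the CEACAM5 window both did. The motif TTTAT, the core of the CDX recognition site, was searched on both strands and occurred in 4 of the 5 windows (not in ALPI) and in 34.9% of all windows. TATAAA, whose reverse complement contains TTTAT, occurred in FABP1 only and in 11.5% of all windows. These matches describe letters and not bound sites.

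Intensities were corrected for background, quantile-normalized and taken to log2. A probe was kept if its detection p-value was under 0.01 on at least 3 of the 12 arrays, which left 9484 genes to test. Between 11742 and 13647 probes were detected per array, raw medians lay between 117 and 135, and arrays of the same group correlated at 0.991 to 0.996 across genes. The arrays lay on 2 chips. On chip 1 were replicate 1 of every group and replicate 2 of the untreated and the TSA cells, and on chip 2 the remaining 6 arrays. Of 10 colorectal epithelial markers, 7 (among them EPCAM, CDH1, KRT8 and KRT18) were detected on all arrays of every group. KRT20 and LGALS4 were not detected on any array, and neither was VIL1. Of the 7 tested, 1 (CDX2) rose and 5 fell after azacytidine (63.4% of all tested genes were called), and 1 rose and 4 fell after the combined treatment (68.9% of all). KRT19, an epithelial keratin, fell by 1.79 after azacytidine (3.46-fold, adjusted p = 7.25e-07) and by 0.81 after the combined treatment. CDH1, the epithelial cadherin, fell by 0.69 after azacytidine. The summed linear level of the 10 markers was 38698 to 43117 in control cells, 27926 to 30852 after azacytidine, 38000 to 46422 after TSA and 29928 to 35078 after the combined treatment. The part of this in the results was not tested. None of the fibroblast, leukocyte and endothelial markers with a probe (7, 5 and 5 genes) was detected on any control array.

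Of the 10 genes, 3 passed the detection filter and were tested, namely CDX2, CA2 and CA4. CDX2 alone was well above background throughout, with a detection p-value of 0 on all 12 arrays. CA4 passed through its detection on the 3 combined arrays, so a higher combined level was built in. It was also detected on 1 azacytidine array, although the azacytidine group was not higher than control. The other 7 stayed below the filter, and 5 of them, MUC2, VIL1, CEACAM5, FABP1 and ALPI, were not detected on any array. Low probes were therefore also fitted without the filter, over all 18665 named genes, as an alternative. A probe below detection has an upper bound and no measured level, and fewer expressing cells cannot be told apart from less RNA per cell.

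**Figure D1:**
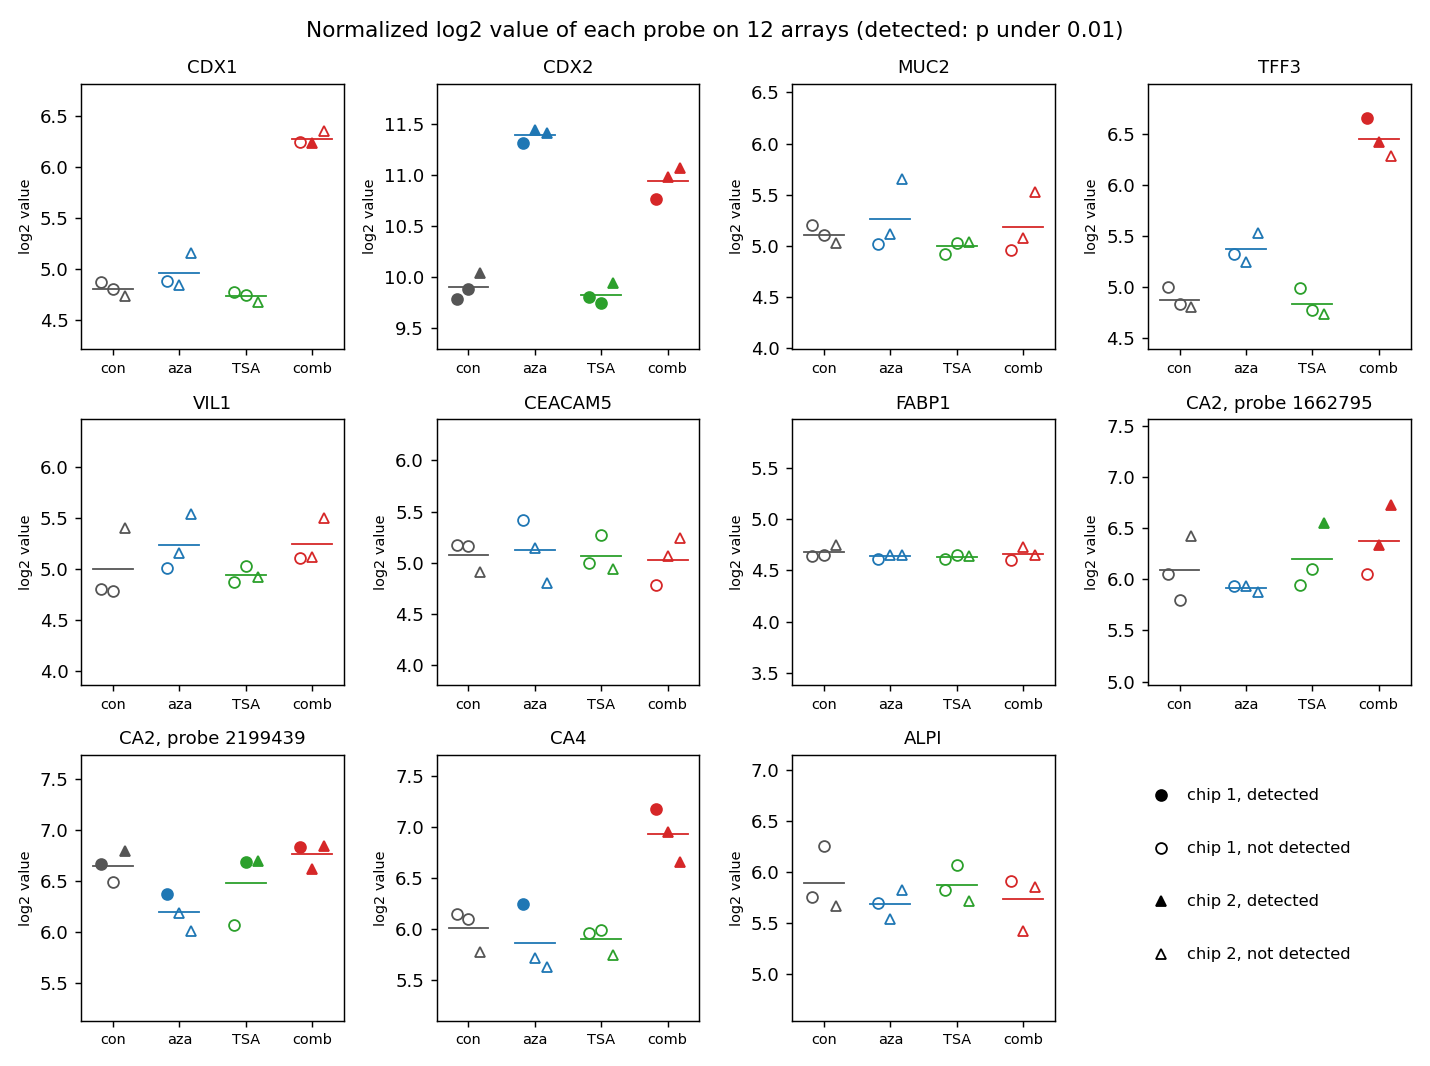
Normalized log2 value (vertical axis, each panel on its own scale) of each of the 11 probes on the 12 arrays by group (con, control; aza, azacytidine; comb, combined), with circles for chip 1, triangles for chip 2, filled symbols for detection p under 0.01 and a bar for the group mean of 3 arrays. CDX2 was detected on every array and highest after azacytidine, whereas CDX1, TFF3 and CA4 stood apart on the 3 combined arrays.

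CDX2, a homeodomain factor of intestinal identity, gave raw intensities of 872, 1030.3 and 1522 in control cells and of 2155, 3147 and 2371 after azacytidine. On the normalized log2 scale the control arrays stood at 9.79, 9.88 and 10.04 and the azacytidine arrays at 11.32, 11.45 and 11.41. Every azacytidine array thus lay above every control array on both scales. The TSA arrays stood at 9.80, 9.75 and 9.94, within and just below the control values. The combined arrays, at 10.77, 10.98 and 11.07, lay between those of the untreated and the azacytidine cells without overlapping either. The group means were 11.39 ± 0.07 (SD, n = 3) after azacytidine, 10.94 ± 0.15 after the combined treatment, 9.91 ± 0.13 in control cells and 9.83 ± 0.10 after TSA. In that order the last neighbours, control and TSA, did not differ beyond their spread.

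CDX2 rose by 1.49 ± 0.10 SE after azacytidine (2.80-fold, limma adjusted p = 3.62e-08) and by 1.04 ± 0.10 SE after the combined treatment (2.05-fold, adjusted p = 9.19e-07). It was 1.11 higher in the combined than in the TSA cells (adjusted p = 4.59e-07). After TSA alone its change was −0.07 (95% interval −0.29 to 0.14, adjusted p = 0.875). CDX2 fell by 0.45 from azacytidine alone to the combined treatment (adjusted p = 0.00328). That decrease lost its call on chip 1, where each of these groups had 1 array (−0.54, adjusted p = 0.0640), and kept it on chip 2 (−0.40, adjusted p = 0.0209). The interaction (how much the azacytidine change differed when TSA followed) was −0.37 ± 0.14 SE (adjusted p = 0.0685) and was not called. It passed with the chip as a block (adjusted p = 0.00687), with the replicate number as a block (0.0234), without background correction (0.0362), in the authors' processed values (0.0250), without control replicate 3 (0.0361) and without combined replicate 3 (0.0478). Within chips the azacytidine change was 1.48 on chip 1 and 1.39 on chip 2, and the combined change 0.93 and 0.98. The smallest combined change over all settings was 0.64, with median scaling (adjusted p = 0.00528).

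CDX1, the paralogue of CDX2, lay near background in 3 of the 4 groups. Its raw intensities were 178, 172 and 204 on the combined arrays and between 94.7 and 125 on the other 9. The detection p-values on the combined arrays were 0.0132, 0.00791 and 0.0105, of which 1 was under 0.01, and the lowest on any other array was 0.144. All 3 combined arrays therefore lay above all others, close to the limit of detection. Without the filter the combined change was 1.47 ± 0.09 SE (adjusted p = 4.72e-08), against 0.15 after azacytidine (adjusted p = 0.239) and −0.07 after TSA (adjusted p = 0.944). The interaction was 1.39 ± 0.13 SE (adjusted p = 3.19e-05, and 0.0837 on chip 2 alone). No bound above 1-fold could be given, because the combined mean of 6.28 lay under the detection floor of the control arrays (6.69). The size depends on the background correction, being 0.72 without it and 0.41 in the authors' processed values. CDX4, the remaining CDX gene, was not detected on any array.

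Among the goblet cell products, TFF3 had raw intensities of 197, 182 and 200.4 on the combined arrays, 131, 139 and 140.1 on the azacytidine arrays and between 99.1 and 124 on the control and TSA arrays. It was detected on 2 combined arrays at 0.01. Its arrays were ordered without overlap from combined to azacytidine to the other groups. Without the filter TFF3 changed by 1.57 ± 0.12 SE after the combined treatment (adjusted p = 2.31e-07) and by 0.49 ± 0.12 SE after azacytidine (adjusted p = 0.00470). The azacytidine call was lost on chip 1 alone (0.41, adjusted p = 0.124) and on chip 2 alone (0.59, adjusted p = 0.0512). The combined cells were 1.08 higher than the azacytidine cells in the fit (adjusted p = 4.05e-05). The computed bound was 1.07-fold, with the combined mean taken as measured although only 2 combined arrays detected TFF3. The interaction was 1.13 ± 0.16 SE (adjusted p = 0.000888), and within single chips it missed the threshold (1.36 on chip 1, adjusted p = 0.0613, and 1.03 on chip 2, adjusted p = 0.126). Against control the bound did not exceed 1-fold, and in the authors' processed values the combined change was 0.43.

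MUC2 did not follow TFF3. Its raw intensities were 120.0, 126 and 128 in control cells, 117, 132 and 144 after azacytidine, 119, 130 and 116 after TSA, and 125, 124 and 160.1 after the combined treatment. The groups overlapped throughout. The lowest detection p-value was 0.0343, on azacytidine replicate 3. The fitted combined change without the filter was 0.08, with a 95% interval from −0.28 to 0.44. The related trefoil genes TFF1 and TFF2 and the gel-forming mucin MUC6 were not detected on any array.

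VIL1 and CEACAM5, the structural and surface markers, were likewise not detected. Raw VIL1 intensities ran from 101 to 159, with detection p-values of 0.0356 or more. Its combined change without the filter was 0.24 (95% interval −0.14 to 0.63, adjusted p = 0.324), and it was called only when control replicate 3, the highest control array, was left out (0.44, adjusted p = 0.0439). Raw CEACAM5 intensities ran from 105 to 143, with detection p-values of 0.0672 or more and a combined change of −0.05 (95% interval −0.40 to 0.30). Its promoter window is the CpG-poor one printed above. These intervals bound the fitted signal only, since a probe at background cannot show a decrease.

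FABP1 had raw intensities between 87.7 and 111, with detection p-values of 0.813 or more on every array. Its fitted changes without the filter lay between −0.05 and −0.02 in the 3 comparisons with control.

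CA2, the cytosolic carbonic anhydrase, was close to the limit of detection. The probe that represented it (ILMN_2199439) gave log2 values of 6.67, 6.49 and 6.80 in control cells, 6.38, 6.19 and 6.02 after azacytidine, 6.07, 6.69 and 6.69 after TSA, and 6.84, 6.62 and 6.85 after the combined treatment. The azacytidine arrays lay below all control and combined arrays, and the TSA arrays spanned both. CA2 fell by 0.46 ± 0.16 SE after azacytidine (1.37-fold, adjusted p = 0.0222), changed by 0.12 after the combined treatment (adjusted p = 0.522) and was 0.58 higher in combined than in azacytidine cells (adjusted p = 0.0131). The interaction was 0.74 ± 0.22 SE (adjusted p = 0.0306). These calls rested on single arrays and on the processing. The azacytidine call was lost without control replicate 1 (adjusted p = 0.0519), azacytidine replicate 2 (0.0505), azacytidine replicate 3 (0.0887) or control replicate 3 (0.0782), with median scaling (0.110), cyclic loess (0.101), the mean of the kept probes (0.0944), the authors' processed values (0.0583) and on chip 1 (−0.20, 0.534). The interaction call was lost in 12 of 23 alternatives, with adjusted p up to 0.308. The difference between combined and azacytidine cells was lost without azacytidine replicate 3 (0.0571), with median scaling (0.0809) and on chip 1 (0.372). The other CA2 probe (ILMN_1662795) was not called in any comparison, with an azacytidine change of −0.17 (adjusted p = 0.459) and an interaction of 0.35 (adjusted p = 0.399).

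CA4, the membrane-anchored carbonic anhydrase of the colonocyte surface, was detected on all 3 combined arrays, on azacytidine replicate 1 and nowhere else. Raw intensities were 229, 213 and 223 after the combined treatment, against 151, 164 and 166 in control cells, 164, 165 and 143 after azacytidine and 164, 183 and 147 after TSA. Every combined array exceeded all 9 others. The combined change was 0.92 ± 0.17 SE (at least 1.18-fold, adjusted p = 0.000356). CA4 was 1.03 higher in the combined than in the TSA cells (at least 1.34-fold, adjusted p = 0.000144) and 1.06 higher than in the azacytidine cells (adjusted p = 0.000408). Neither agent alone gave a call, with −0.14 after azacytidine (95% interval −0.51 to 0.22, adjusted p = 0.479) and −0.11 after TSA (95% interval −0.48 to 0.26, adjusted p = 0.900). The interaction was 1.17 ± 0.24 SE (adjusted p = 0.00416) and 0.34 in the authors' processed values (adjusted p = 0.00935). Because the filter admitted CA4 through the combined arrays, its tests are no independent support for a higher level there. Without the filter the combined change had an adjusted p of 0.00078 and the interaction one of 0.00907. In the authors' processed values the combined change was 0.28.

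ALPI, the intestinal alkaline phosphatase, hovered just under detection in all groups, with detection p-values of 0.0184 to 0.0501. Raw intensities were 137, 172 and 161 in control cells, 143, 155 and 151 after azacytidine, 158, 188 and 145 after TSA and 165, 139 and 178 after the combined treatment. The groups overlapped, and the combined change without the filter was −0.16 (95% interval −0.53 to 0.20).

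**Figure D2:**
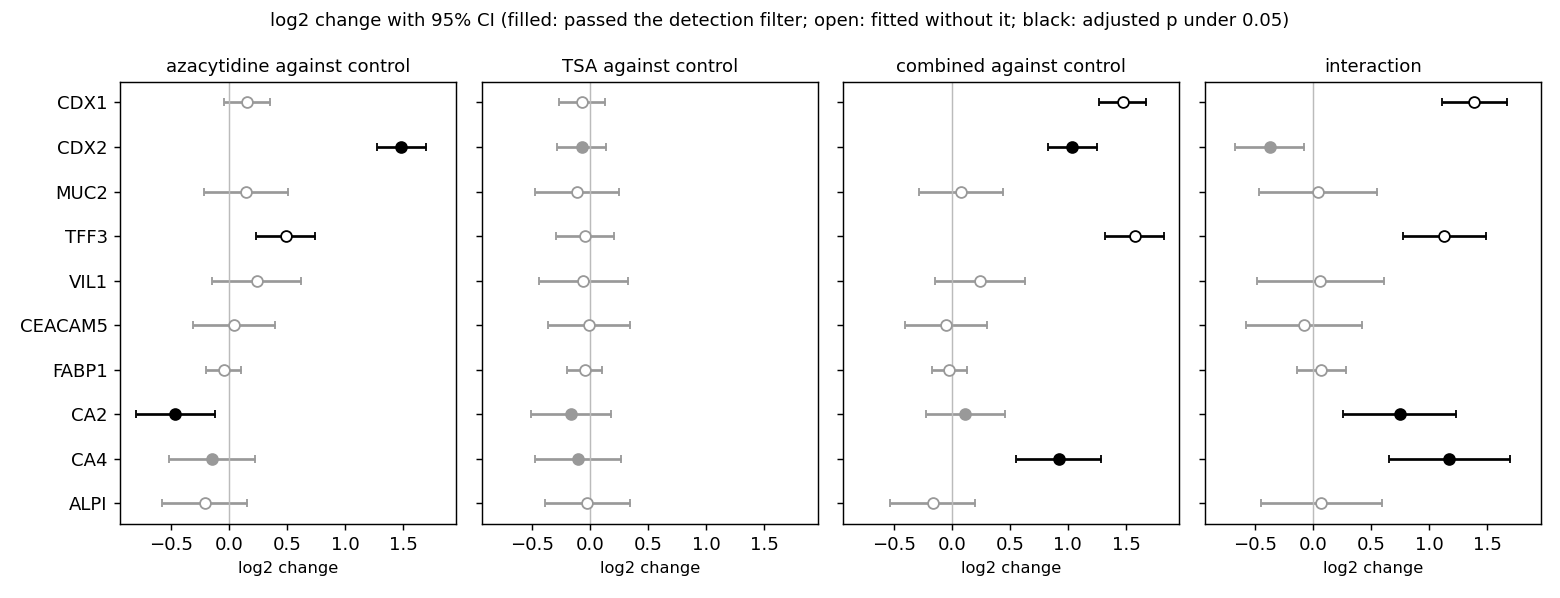
log2 change of each gene (points, with 95% confidence intervals) in the 3 comparisons with control and in the interaction, filled for the 3 genes that passed the detection filter, open for the 7 fitted without it, and black for adjusted p under 0.05. CDX2 was the only gene called after azacytidine with a change over 1, and no gene was called after TSA.

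After azacytidine 2 of the 3 tested genes were called (63.4% of all tested genes), 1 higher (32.3% of all) and 1 lower (31.1% of all). After TSA 0 of 3 were called by limma (0.148% of all tested genes, 14 of 9484, and 721 at an unadjusted p under 0.05). Without the filter it was again 0 of 10 (0.0696% of all genes). After the combined treatment 2 of 3 were called (68.9% of all), both higher (32.7% of all). Combined against azacytidine gave 3 of 3 (35% of all), with CA2 and CA4 higher (15.7%) and CDX2 lower (19.4%). Combined against TSA gave 2 of 3 (69.8%), both higher (33.4%), and the interaction 2 of 3 (22.7%), both above 0 (11.6%). CA4 was among the calls in each comparison with the combined group and in the interaction. The filter admitted it through the combined arrays, so its part in these counts was built in. The other interaction call, CA2, was lost in 12 of 23 alternatives. Without the filter the counts were 3 of 10 after azacytidine (35% of all genes), 4 of 10 after the combined treatment (40.6%), 5 of 10 for combined against azacytidine (17.3%), 4 of 10 for combined against TSA (41.8%) and 3 of 10 for the interaction (10%). Such shares against control are near or below those of genes at large, and the combined treatment and each single agent share their control arrays. Taking each probe as its own feature, the 4 kept probes gave 11 calls over the 6 contrasts, in which 62.2% of all kept probes were called after azacytidine, 0.101% after TSA, 68.6% after the combined treatment, 33.8% for combined against azacytidine, 69.1% for combined against TSA and 21.1% for the interaction.

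The median change of all 10 genes without the filter was 0.10 after azacytidine and 0.18 after the combined treatment, beside −0.00 and −0.01 over all 18665 genes. Median scaling moved the median of all tested genes to −0.14 after azacytidine and −0.32 after the combined treatment. It turned the calls from 3063 higher and 2954 lower to 1695 and 2903 after azacytidine, and from 3106 and 3432 to 1528 and 4261 after the combined treatment.

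The closest patterns over the 12 arrays, each gene centred on its control mean, were measured by the root mean square difference in log2. For CDX2 they were CRELD2 at 0.109, with changes of 1.59 after azacytidine and 0.95 after the combined treatment, and HAUS7 at 0.146. For CA4 they were JARID2-AS1 at 0.145 and LRRC49 at 0.171, and for CA2 MDC1 at 0.166 and PHF21A at 0.178.

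The families of the genes showed further members. Among 4 alkaline phosphatase genes 3 were tested, and 2 rose after azacytidine (63.4% of all tested genes were called) and 3 after the combined treatment (68.9% of all). ALPL, the tissue-nonspecific enzyme, changed by 1.32 after azacytidine (at least 1.52-fold) and 2.70 after the combined treatment (at least 3.94-fold), and ALPG, the germ cell enzyme, by 2.82 after the combined treatment (at least 3.44-fold). ALPG was also called after azacytidine (0.51), not so in the authors' processed values (adjusted p = 0.0667). ALPP, the placental enzyme, was called after the combined treatment (0.39, adjusted p = 0.00776), which median scaling removed (−0.00, adjusted p = 0.982). ALPI, ALPP and ALPG are close in sequence, and probes for one may bind another's transcripts.

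Of 5 tested carbonic anhydrase genes, 1 rose and 3 fell after azacytidine, and 2 rose and 1 fell after the combined treatment (63.4% and 68.9% of all tested genes were called). CA12, a transmembrane isoform, rose by 1.66 and 1.57 (at least 2.04-fold and 1.92-fold). CA11, a carbonic anhydrase-related protein without enzyme activity, changed by −1.87 and −2.04 (at least 1.65-fold lower after either treatment). CA5B, a mitochondrial isoform, fell by 0.56 after azacytidine (adjusted p = 0.0264), a call lost with median scaling, cyclic loess and the authors' values. In the villin family SCIN (scinderin) changed by 0.94 and 2.43 (detected on 2 azacytidine arrays, and at least 2.45-fold higher after the combined treatment), and SVIL (supervillin) by 0.57 and 1.08. CAPG, an actin-capping protein, changed by −1.69 after azacytidine (at least 2.56-fold lower) and by −0.68 after the combined treatment, and GSN (gelsolin) by −0.27 and 0.09, the last not called. The SVIL call after azacytidine was lost with median scaling (0.38, adjusted p = 0.0678). CEACAM1, the only tested CEACAM gene, was detected on the combined arrays alone and was at least 1.20-fold higher there (fitted change 1.67, adjusted p = 4.29e-06). Because the filter admitted CEACAM1 through the combined arrays, its test is no independent support for a higher level there. ALPL, ALPG, CA12 and SCIN were detected on no control or TSA array. The filter thus admitted these genes only through azacytidine or combined arrays, which favours increases. FABP5, the only tested FABP gene, rose by 0.41 after azacytidine (adjusted p = 0.00199, and 0.359 with median scaling) and changed by 0.05 after the combined treatment.

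**Figure D3:**
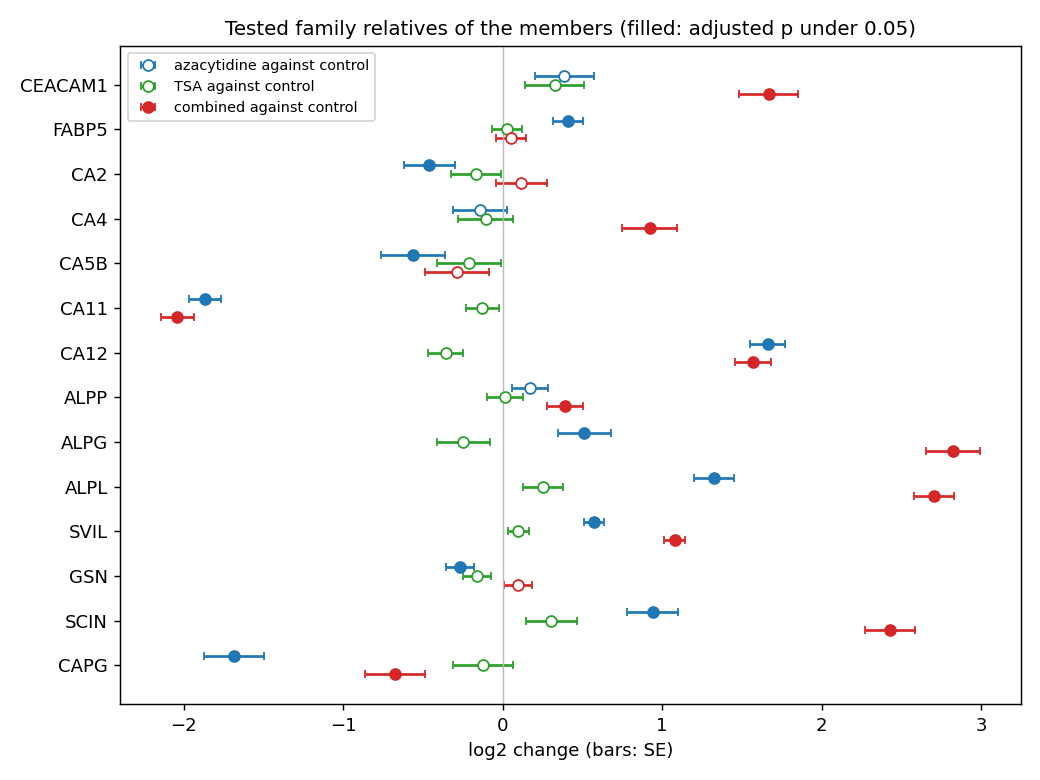
log2 change against control (points, bars SE) of the 14 tested genes in the CEACAM, FABP, carbonic anhydrase, alkaline phosphatase and villin families, after azacytidine (blue), TSA (green) and the combined treatment (red), filled for adjusted p under 0.05. ALPG, ALPL and SCIN showed the largest increases after the combined treatment and CA11 the largest decrease, and no point for TSA is filled.

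Among all tested genes 32.3% rose and 31.1% fell after azacytidine, and 32.7% rose and 36.2% fell after the combined treatment, and the counts of the intestinal lists are to be read beside these shares. Of 9 tested intestinal transcription factors, CDX2 among them, 2 rose and 6 fell after azacytidine, and 2 rose and 7 fell after the combined treatment (63.4% and 68.9% of all tested genes were called, median changes −1.0 and −0.78, or −0.63 and −0.76 with genes below detection at their bound). HNF4G, a nuclear receptor of the enterocyte, changed by −1.41 after both (detected on 2 of 3 control arrays). Its computed bounds, 1.24-fold and 1.25-fold lower, are no minimum. They took the control mean of 6.67 as measured, which lay under the control detection floor (6.69). KLF5, a factor of proliferating crypt cells, changed by −1.41 and −0.76, and MYB, another crypt factor, by −1.0 and −1.68. FOXA1, a pioneer factor of endoderm, rose by 0.31 and 0.49, calls that median scaling removed (adjusted p = 0.447 and 0.351). ATOH1 and SPDEF, which specify goblet cells, were not detected on any array.

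Of 6 tested goblet cell and mucus genes, 4 rose and 1 fell after azacytidine, and 5 rose and 1 fell after the combined treatment (63.4% and 68.9% of all called, medians 1.31 and 1.33, or 0.80 and 1.19 with bounds). Among those that rose, MUC13, MUC20 and TSPAN8 were detected on no control or TSA array. The filter admitted them only through azacytidine and combined arrays, so their increases were built in. FCGBP, a mucus-associated protein, rose by 1.62 and 1.24, and the membrane mucin MUC20 by 1.55 and 2.54 (at least 2.56-fold and 5.08-fold). TSPAN8, a tetraspanin, changed by 2.27 and 1.90 (at least 2.84-fold and 2.20-fold), while GALNT12, which starts mucin O-glycosylation, changed by −1.47 and −1.73. The goblet products AGR2, CLCA1, ZG16 and SPINK4 stayed undetected, as did MUC2.

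Of 11 tested brush border and adhesion genes, 2 rose and 6 fell after azacytidine, and 3 rose and 6 fell after the combined treatment (63.4% and 68.9% of all called, which holds for the next lists too, medians −0.37 and −0.42, the same with bounds). CDH17, the liver-intestine cadherin and a known CDX2 target, changed by −1.24 ± 0.10 SE and −0.90 ± 0.10 SE, while CDX2 itself rose. USH1C, a scaffold of the intermicrovillar adhesion complex, changed by −1.48 and −1.24 (at least 1.56-fold and 1.57-fold lower). MYO1D, a myosin, changed by −0.66 and −0.58. ESPN, an actin-bundling protein, changed by 1.10 after the combined treatment, where 2 arrays detected it and no bound above 1-fold could be given. ESPN and CEACAM1, both of this list, were detected on no control or TSA array. The filter admitted them only through azacytidine or combined arrays, which favours increases. Of 7 tested enzymes and transporters, CA2 and CA4 among them, 2 rose and 3 fell after azacytidine, and 3 rose and 2 fell after the combined treatment (medians −0.14 and 0.24, or −0.13 and 0.24 with bounds). CA4 and CA12 were detected on no control or TSA array, so the filter admitted them only through azacytidine or combined arrays. SLC26A6 rose after both, and median scaling removed both calls (limma adjusted p = 0.261 and 0.961). DPP4, a brush border peptidase, changed by −0.86 after azacytidine, and MEP1B, a meprin subunit, by −0.64 and −1.01 (detected on 1 of 3 control arrays). The computed bound for MEP1B, 1.19-fold lower after either, is no minimum. It took the control mean of 6.61 as measured, which lay under the control detection floor (6.69). Of 7 tested lipid genes, 2 rose and 2 fell after azacytidine, and 3 rose and 2 fell after the combined treatment (medians −0.09 and 0.10, the same with bounds). ACSL5, a long-chain acyl-CoA synthetase, changed by −2.92 and −2.34, and PLIN2, a lipid droplet coat protein, by 1.18 and 2.00, the latter at least 1.14-fold. PLIN2 was detected on no control or TSA array and on 1 azacytidine array, and no bound above 1-fold could be given after azacytidine. CD36 rose after both treatments, and median scaling removed both calls (limma adjusted p = 0.617 and 0.926). PPARG, a nuclear receptor of lipid metabolism, changed by −0.62 and 0.39, and the increase was lost with median scaling (adjusted p = 0.173). SCARB1, a lipoprotein receptor, changed by −0.68 after the combined treatment.

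Of 17 listed enteroendocrine genes 5 were tested, of which 4 rose after either treatment and 0 fell (63.4% and 68.9% of all called, medians 1.65 and 2.38, or 0.71 and 0.82 with bounds). SCG5, a secretory granule chaperone, rose by 3.11 and 3.73 (at least 6.90-fold and 10.6-fold), and CCK, the gut hormone cholecystokinin, by 2.34 and 5.19 (at least 1.63-fold and 11.8-fold). CHGA, chromogranin A, rose by 2.38 after the combined treatment (at least 1.77-fold) and by 0.27 after azacytidine, where it was not detected and lost its call with median scaling, without background correction and in the authors' values. SCG2, another granule protein, rose by 1.65 and 1.37 (at least 1.68-fold and 1.38-fold). Of 7 tuft cell genes 2 were tested. TRPM5, a cation channel of tuft cells, rose by 3.01 and 2.96 (at least 2.22-fold and 2.15-fold), and DCLK1, a kinase, rose by 1.12 after the combined treatment and changed by 0.13 after azacytidine (adjusted p = 0.232). None of 7 Paneth cell genes passed the filter. Genes silent in control cells are tested only if treated arrays detect them, so increases are favoured in such lists. No listed intestinal gene was called after TSA.

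**Figure D4:**
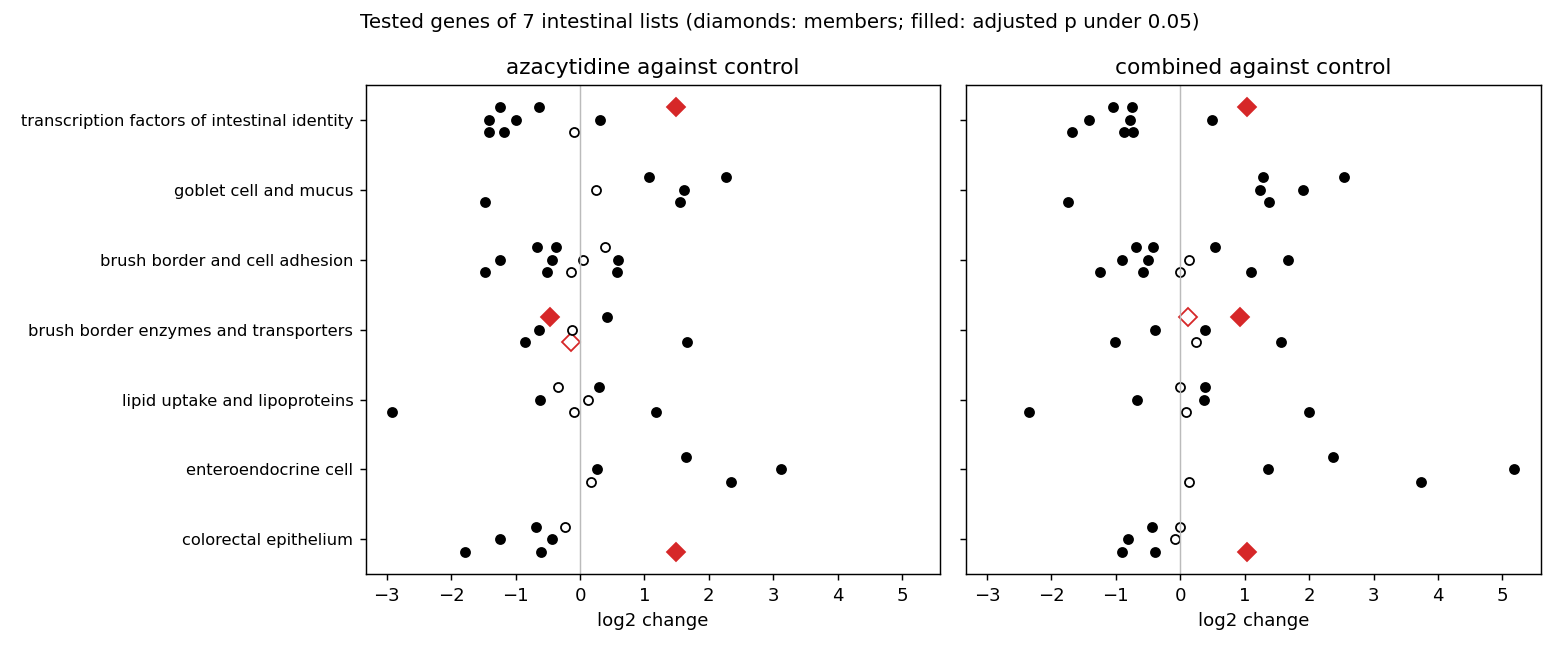
log2 change of every tested gene of 7 intestinal lists after azacytidine and after the combined treatment (points, with the genes of this report as red diamonds and filled symbols for adjusted p under 0.05). CDX2 lies to the right of zero among transcription factors that are mostly to the left, and the enteroendocrine genes lie to the right.

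Of the fibroblast, leukocyte and endothelial markers, 3 were tested and rose after both treatments, and the remaining ones stayed below the filter. Among all tested genes 32.3% rose after azacytidine and 32.7% after the combined treatment. The 3 genes, THY1, CD14 and VWF, were detected on no control or TSA array. The filter admitted them only through azacytidine and combined arrays, so their increases were built in. CTSE, the only tested gene of the gastric list, was not called by limma after either treatment. Its changes were −0.36 after azacytidine (adjusted p = 0.0670) and −0.37 after the combined treatment (adjusted p = 0.0565). SERPINA1, the only tested gene of the liver list, rose by 0.40 after azacytidine and changed by −0.05 after the combined treatment (adjusted p = 0.765). Its azacytidine call was lost with median scaling (limma adjusted p = 0.210) and with the chip as a block (0.0523). THY1 (1 of 7 fibroblast markers) changed by 2.21 after azacytidine and 3.47 after the combined treatment (at least 1.16-fold and 2.77-fold). In the same order CD14 (1 of 5 leukocyte markers) changed by 1.49 and 1.97 (at least 1.72-fold and 2.41-fold). VWF (1 of 5 endothelial markers) changed by 2.47 and 4.50 (at least 2.22-fold and 9.05-fold). The summed linear level of the fibroblast list was 226 to 236 in control cells and 519 to 596 after the combined treatment. That of the leukocyte list was 183 to 201 and 357 to 406, and that of the endothelial list 198 to 203 and 1033 to 1191. Only 1 gene of each list was detected on all 3 combined arrays, namely THY1, CD14 and VWF. These sums therefore do not show a rise of each list as a group. Among defining markers, COL1A2, COL3A1, PTPRC, CD3E and CDH5 were not detected on any array, COL1A1 and PDGFRB were each detected on 1 combined array and PECAM1 on 1 azacytidine array. The part of such cells in the increases was not tested.

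**Figure D5:**
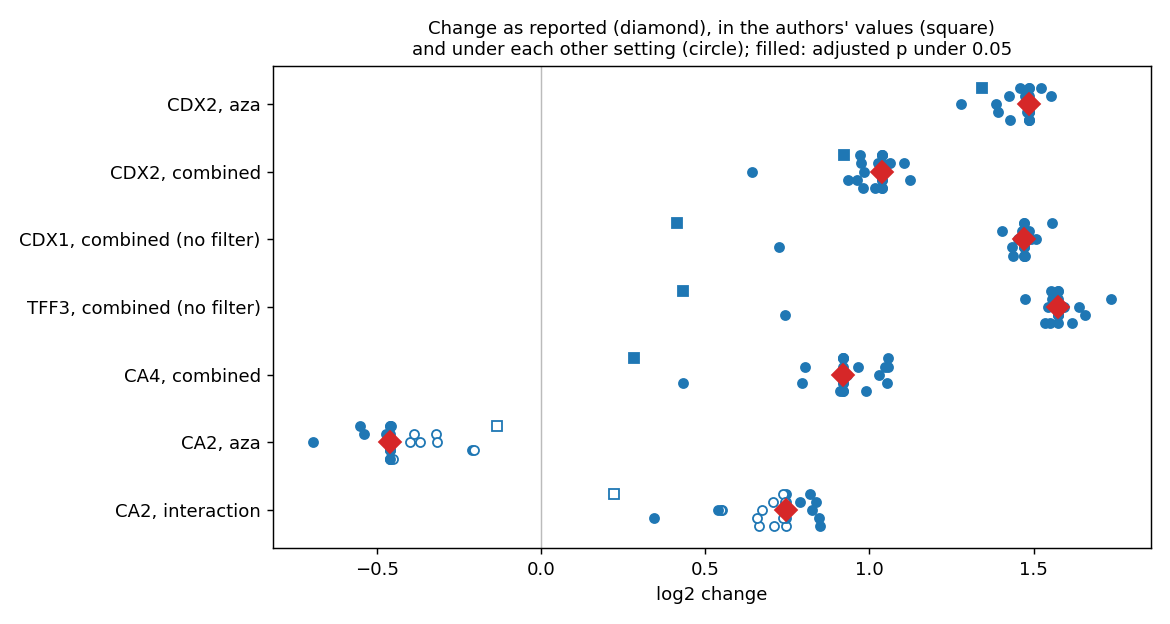
log2 change of 5 genes under each processing setting and with each array left out (circles), in the authors' processed values (squares) and as reported (red diamonds), filled for adjusted p under 0.05. The CDX2, CDX1, TFF3 and CA4 changes kept their sign and call under every setting shown, with the smallest sizes for low-signal genes in the authors' values, while many of the CA2 points are open.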

How the data were processed

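RNA of 12 SW48 samples was hybridised to Illumina HumanWG-6 v3 arrays. The deposited intensity values are linear, with no normalization between arrays, as the values show, and the submitters' processing notes name GenomeStudio. A deposited detection p-value accompanies each intensity, per the file headers. A further deposited table holds the authors' processed log2 values (array medians 7.63), for which the notes name lumi 2.6.0. It served as an alternative only, since no source used here gives its transform.

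Background was corrected with limma 3.58.1 (R 4.3.3) by the normal-exponential model with detection p-values and an offset of 16, followed by quantile normalization. Probes detected at p under 0.01 on at least 3 arrays were kept (13915 of 48801), and a gene was represented by its brightest kept probe. Of the probes, 27577 had 1 gene symbol, 13 had several and 21211 are unnamed here. Entrez IDs of 27540 probes matched RefSeq, and 0 symbols changed. No 2 arrays held identical values. A model with 4 group means gave 6 contrasts, tested two-sided with limma's moderated statistics and Benjamini-Hochberg adjustment over 9484 genes at 0.05. It was tested on simulated data. Genes below detection on every array of a group have a bound ("at least N-fold"), computed from the lowest detected signal per array. The mean of the brighter group was taken as measured, also where not all its arrays detected the gene.

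The members and lists were chosen with earlier results of these data known. Every member and tested family relative is named, and, from the intestinal and marker lists, up to 3 called genes per list and comparison with the largest change. Of the liver list, SERPINA1 was called after azacytidine in the main fit (0.40, adjusted p = 0.0316), though not with median scaling or the chip as a block. The other listed genes were named after their values were seen. The likeness rule took the 2 nearest genes of each called member. Replicate numbers come from the labels. Same-numbered arrays deviated together in every pair for combined against azacytidine only (correlations 0.417, 0.197 and 0.204). Same-numbered azacytidine and combined arrays always shared a chip, so a pairing by replicate number cannot be told apart from the chip there. In the remaining comparisons at least 1 pair lay under 0.1. Alternatives covered background, scaling, filter, probe choice, chip, replicate block and each array left out. Precision is limited by 3 arrays per group. The crossing of the no-filter fit with each other choice was added after seeing the data.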

Additional observations from a re-analysis of the deposited data

Results flagged for a closer look

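For 4 of the genes the azacytidine change differed according to whether TSA followed, by the test of the difference itself. CA2 and CA4 were called in the main fit, where 22.7% of all tested genes were called. CDX1, TFF3 and CA4 were called in the fit without the filter, where 10% of all genes were called. For CA4 the difference was 1.17 ± 0.24 SE on the log2 scale (limma adjusted p = 0.00416), and 0.34 in the authors' processed values. CA4 had passed the filter only through the combined arrays and 1 azacytidine array, so a higher combined value was built in. For CA2 it was 0.74 ± 0.22 SE (adjusted p = 0.0306), a call lost in 12 of 23 alternatives. The fit without the filter was among them (adjusted p = 0.0589). For the other CA2 probe the difference was 0.35 (adjusted p = 0.399). In the fit without the filter it was 1.39 ± 0.13 SE for CDX1 (adjusted p = 3.19e-05) and 1.13 ± 0.16 SE for TFF3 (adjusted p = 0.000888), genes detected at p under 0.01 on 1 and 2 of the 3 combined arrays and on no other array. Both genes lay at background in the other 3 groups, so these sizes depend on the processing, and in the authors' processed values they were 0.39 for CDX1 and 0.30 for TFF3. The call was lost for CDX1 on chip 2 alone (adjusted p = 0.0837) and for TFF3 on chip 1 alone (0.0613) and on chip 2 alone (0.126).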

How the results depend on the processing

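No result changed direction while called. After azacytidine the count of called members went from 2 to 1 with median scaling, cyclic loess, the authors' processed values, the mean of the kept probes and chip 1 only, and was 1 to 2 with single arrays left out (1 without control replicate 1 or 3 or azacytidine replicate 2 or 3). After the combined treatment it went from 2 to 4 without the filter and with detection p under 0.05, and combined against TSA did likewise, from 2 to 4. These filters brought 10 and 6 members into the test, in place of 3. Over all genes they called 7576 of 18665 and 7425 of 11935 after the combined treatment. The calls were 7810 and 7562 for combined against TSA, 3221 and 3404 for combined against azacytidine, and 1873 and 2101 for the interaction. Combined against azacytidine went from 3 to 5 under both filters and to 1 on chip 1, and was 2 to 3 with single arrays left out. The interaction count went from 2 to 1 with median scaling, the mean of the kept probes, chip 1 only and chip 2 only, to 4 with detection p under 0.05, and was 1 to 2 with single arrays left out. The 11 calls over member probes became 18 without the filter, 19 with detection p under 0.05 and 7 on chip 1, and were 8 to 11 with single arrays left out. After TSA the count stayed at 0 in all 24 alternatives. Over all genes, the 3321 calls of combined against azacytidine became 1888 with median scaling and 789 on chip 1. With the replicate block the counts were 2 after azacytidine, 0 after TSA, 2 after the combined treatment, 3 for combined against azacytidine, 2 for combined against TSA and 3 for the interaction, where CDX2 was added (adjusted p = 0.0234), and 13 over member probes, where the main count was 11. Chip 1 held 1 azacytidine and 1 combined array, assumed to vary like the other groups. The interaction uses all groups, so fitting only the arrays compared was not run for it. Most members lay at background, where a decrease could not be measured and fitted changes depend on the background correction.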
